A study of Rattus norvegicus with 20 samples.

Results

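The genes described here are 10 neuropeptide genes of the rat hippocampus, Trh, Npy, Sst, Vip, Cck, Penk, Pdyn, Tac1, Crh and Cort. They were chosen by symbol, with earlier results of these rats known, and they are 10 of the 17168 genes in each of 2 tables. The genotype comparison held 5 wild-type rats without treatment (WTNT) and 5 TgF344-AD transgenic rats without treatment (TGNT), and the treatment comparison held 4 other TGNT rats and 6 TgF344-AD rats given diazoxide with dibenzoylmethane (TGTR). All 20 rats were female Fischer 344 rats of 4 months, and each gave 1 library of stranded poly(A) mRNA from the hippocampus. The TGNT and TGTR rats all carried human APP with the Swedish mutation and human PS1 lacking exon 9, both driven by the prion promoter, which is active in many cell types and not in neurons alone. WTNT and TGNT rats ate regular chow. The study's methods describe food restriction for a radial arm maze task at 4 months. Some rats were killed for RNA sequencing after that task. TGTR rats ate chow with diazoxide, a potassium channel activator, and dibenzoylmethane, a curcumin analogue, from day 52 on, so that the effects of the 2 compounds cannot be told apart.

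Neuropeptides are made as larger precursor proteins, cut at pairs of basic residues by prohormone convertases, trimmed, and stored in dense-core vesicles until a neuron fires strongly enough to release them. In the hippocampus most are made by sparse GABAergic interneurons, and somatostatin, neuropeptide Y, vasoactive intestinal peptide and cholecystokinin are standard markers of interneuron classes. Dynorphin and enkephalin are also made by granule cells of the dentate gyrus, and many precursor genes are switched on by activity through the transcription factor CREB, which binds the sequence TGACGTCA.

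Promoter windows are shown for Trh, Cort and Sst, which had an unadjusted edgeR p under 0.05 in a comparison, and for Vip, which had none. Each window holds 250 bases before and 50 bases after the RefSeq start of the gene in build GRCr8, written 5′ to 3′ on the strand of the gene. Capitals mark the 5-base core TGACG, or CGTCA where it lies on the opposite strand, extended to TGACGT or to TGACGTCA where those letters follow.
Trh (chr4:126301713-126302012, minus strand): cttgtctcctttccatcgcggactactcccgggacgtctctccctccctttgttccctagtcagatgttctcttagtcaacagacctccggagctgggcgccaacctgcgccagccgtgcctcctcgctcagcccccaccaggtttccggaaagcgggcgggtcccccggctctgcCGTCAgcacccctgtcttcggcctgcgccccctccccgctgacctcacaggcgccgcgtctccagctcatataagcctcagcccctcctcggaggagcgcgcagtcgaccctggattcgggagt
Cort (chr5:164845075-164845374, minus strand): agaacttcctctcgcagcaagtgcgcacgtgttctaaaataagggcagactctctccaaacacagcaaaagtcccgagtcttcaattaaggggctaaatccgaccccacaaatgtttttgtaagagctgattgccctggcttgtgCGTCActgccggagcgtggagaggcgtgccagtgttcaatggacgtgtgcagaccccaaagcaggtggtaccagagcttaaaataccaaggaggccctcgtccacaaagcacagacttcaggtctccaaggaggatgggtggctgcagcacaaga
Sst (chr11:90461296-90461595, plus strand): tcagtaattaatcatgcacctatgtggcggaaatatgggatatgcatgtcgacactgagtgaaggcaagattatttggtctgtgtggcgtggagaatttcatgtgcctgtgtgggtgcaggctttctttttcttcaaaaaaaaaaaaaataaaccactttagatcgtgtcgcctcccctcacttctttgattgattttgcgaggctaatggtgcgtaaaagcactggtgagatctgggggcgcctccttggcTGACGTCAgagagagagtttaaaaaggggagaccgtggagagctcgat
Vip (chr1:44470230-44470529, plus strand): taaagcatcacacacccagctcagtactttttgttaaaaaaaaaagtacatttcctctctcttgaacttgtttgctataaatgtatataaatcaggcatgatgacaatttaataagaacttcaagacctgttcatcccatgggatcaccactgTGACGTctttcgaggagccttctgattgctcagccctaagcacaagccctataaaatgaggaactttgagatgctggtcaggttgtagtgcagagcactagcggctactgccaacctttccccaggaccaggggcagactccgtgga
Windows were found for 7 of the 10 members, and Cck, Penk and Crh had none in the table used. The complete TGACGTCA was in the Sst window alone among the 7, with its first base at position 2 after the RefSeq start, and in 1.83% of the 33469 windows of all genes. Positions are counted from the base of the RefSeq start, and where transcription began in these rats was not measured. The 6-base TGACGT, part of the same motif, was in the Sst and Vip windows and in 7.94% of all windows. The 5-base TGACG, searched on both strands and contained in both longer motifs, was in 5 of the 7 (Cort, Sst, Tac1, Trh and Vip) and in 21.2% of all windows. It began at position -97 for Vip on the strand of the gene, and on the opposite strand at -74 for Trh, -105 for Cort and -206 for Tac1. The windows of Npy and Pdyn held none of these letters.

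Libraries of the genotype comparison held 5848458 to 9926088 estimated counts, and those of the treatment comparison 9215039 to 14175594. Levels are given as the deposited signal, reads per 1000000 after TMM scaling by the authors (RPM). Before that scaling a single count was worth 0.101 to 0.171 RPM among WTNT, 0.123 to 0.151 RPM among TGNT of the genotype comparison, and 0.0705 to 0.109 RPM in TGTR. App, the rat gene that corresponds to the human APP transgene, served as the check of genotype, though how reads of the human gene were assigned was not stated. It was 1101 ± 47.5 RPM in WTNT and 2187 ± 122 RPM in TGNT (mean ± SD, n = 5 each, edgeR quasi-likelihood log2 fold change 1.00, Benjamini-Hochberg adjusted p = 2.45e-07). Marker lists were counted beside the tissue label. Of the listed genes with a row, 6 of 8 dentate granule cell, 5 of 6 CA1 and 2 of 4 CA3 genes reached a mean of 10 counts in each comparison. Striatum genes reached it in 7 of 8 between genotypes and 8 of 8 under treatment, and thalamus and habenula genes in 7 of 9 in each. This count thus does not tell these tissues apart. Markers of the hypothalamus, where Trh, Crh and Npy are abundant, summed to between 3.68 and 6.30 RPM in WTNT and between 3.49 and 6.99 RPM in TGNT, with 3 of the 8 at 0 in every rat.

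Between genotypes, Trh was the member that differed most. Trh, the precursor of thyrotropin-releasing hormone, was 0.942 ± 0.464 RPM in WTNT and 0.157 ± 0.103 RPM in TGNT (n = 5 each), and every TGNT rat of this comparison was below every WTNT rat. The 4 TGNT rats of the treatment comparison, normalized separately, had 0.343 to 0.977 RPM, above all 5 of these TGNT rats. The other 9 members overlapped between genotypes, and no member passed the adjusted threshold of 0.05 in the edgeR quasi-likelihood test (adjusted p = 1 for all 10). Over all genes 2 passed it, or 0.0116%. At an unadjusted p under 0.05 the count was 1 of 10 members, Trh, where 3.23% of all genes passed (1.72% higher and 1.5% lower in TGNT), and groups without overlap were found in 1 of 10 members and in 0.669% of the 13145 genes whose mean reached 1 count. Because the list was drawn up with these results known, these counts describe the members and do not test them.

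Trh was near the limit of detection. The WTNT rats had 10, 10, 3, 5 and 5 counts and the TGNT rats 2, 1, 0, 1 and 2, in the order of their numbers. The group sums were thus 33 and 6 counts, and the ratio of the TGNT to the WTNT sum, each per total count, was 0.173 with an exact 95% interval of 0.0593 to 0.419 that covers counting error only. The fitted log2 fold change was -2.43 ± 0.57 (SE) and the unadjusted p was under 0.05. Leaving out 1 rat at a time moved it between -2.66 and -2.13, with an unadjusted p under 0.05 each time, and a filter on low counts removed the gene from the test. Other settings gave -2.57 (DESeq2) to -0.72 (limma on log2(RPM + 1), a scale that shrinks changes of low genes), and the lowest adjusted p was 0.0794, with the edgeR likelihood ratio test. In build GRCr8 Trh overlaps a long non-coding RNA gene, LOC134486818, which had no row of its own, and use of strand in counting was not stated, so the origin of these few reads is uncertain. In bulk tissue, fewer cells that make a peptide and less RNA per cell cannot be told apart.

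**Figure D1:**
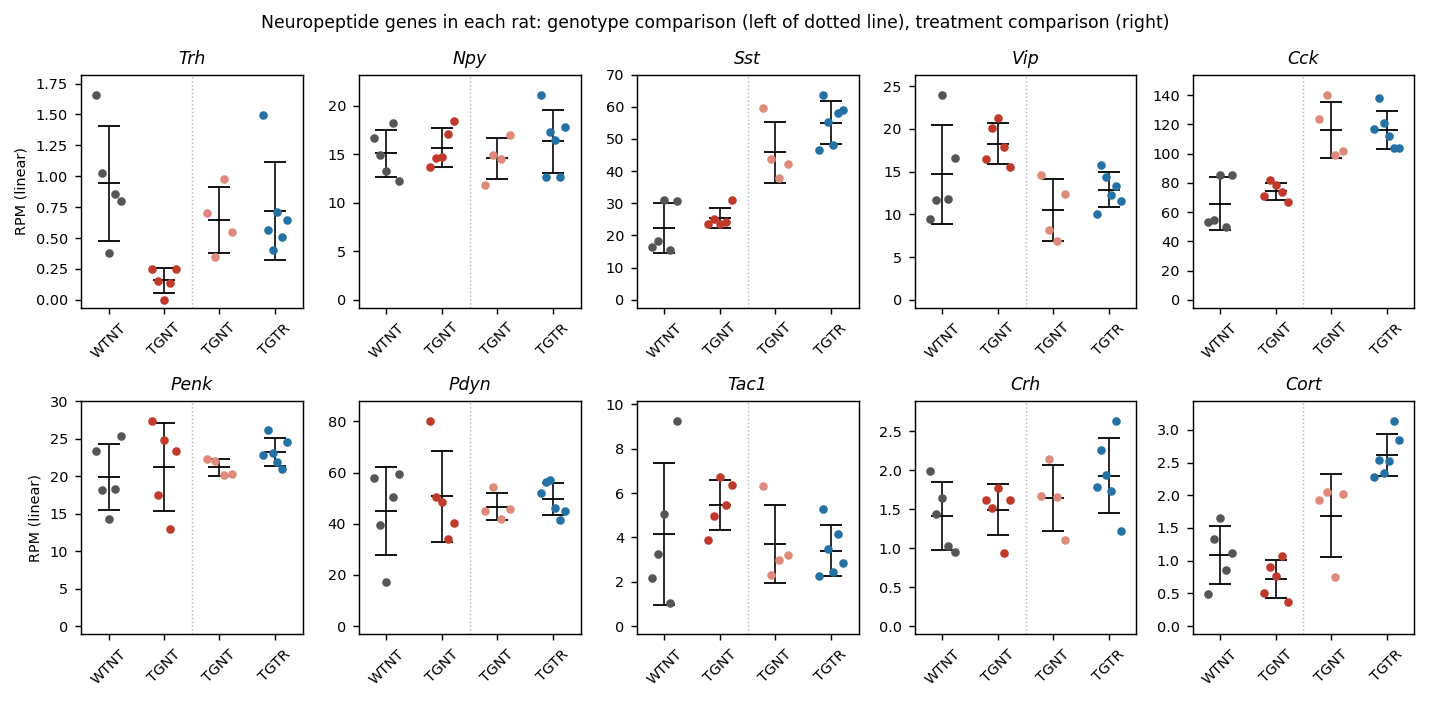
RPM (linear axis) of each of the 10 neuropeptide genes in each rat, with WTNT and TGNT of the genotype comparison left of the dotted line and TGNT and TGTR of the treatment comparison right of it. Points are rats and bars are the mean ± SD. Trh of the 5 TGNT rats on the left lies between 0 and 0.250 RPM, below all WTNT rats, and Cort of the 6 TGTR rats lies between 2.28 and 3.13 RPM, above all 4 TGNT rats beside them, while other members overlap. The 2 sides were normalized separately.

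Thyrotropin-releasing hormone acts through the receptor Trhr, which was 15.3 ± 10.4 RPM in WTNT and 24.8 ± 9.79 RPM in TGNT, with ranges of 7.77 to 32.8 and of 12.3 to 38.3 RPM. The log2 fold change was 0.73 ± 0.35 (SE), and it did not pass the threshold (edgeR adjusted p = 1). The other listed receptor of the peptide, Trhr2, had a mean of 4 counts. It was 0.507 ± 0.358 RPM in WTNT and 0.548 ± 0.474 RPM in TGNT (log2 fold change 0.07 ± 0.63). The peptide is inactivated by the ectoenzyme Trhde, which was 124 ± 22.5 RPM in WTNT and 106 ± 23.2 RPM in TGNT (log2 fold change -0.22 ± 0.14, edgeR adjusted p = 1).

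The precursor genes Sst, Vip and Cck and the tachykinin precursor Tac1 shared a pattern of spread. For each of them all 5 TGNT rats were above the median of the WTNT rats, yet the groups overlapped. The share of all genes with this pattern was not counted. Cck, the precursor of cholecystokinin, was 53.5, 54.7, 85.3, 49.8 and 85.4 RPM in WTNT rats 1 to 5 and 71.0, 81.7, 78.2, 73.5 and 66.8 RPM in TGNT rats 1 to 5. Rats 3 and 5 of WTNT were above, and rats 1, 2 and 4 below, every TGNT rat. The coefficient of variation of Cck was 27.4% in WTNT and 7.92% in TGNT, and the log2 fold change of 0.18 ± 0.14 did not pass.

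Sst, the precursor of somatostatin, was 16.6, 18.3, 30.9, 15.4 and 30.6 RPM in WTNT and 23.5, 25.0, 23.7, 24.3 and 31.0 RPM in TGNT. The same 2 WTNT rats were high, and the other three lay below all TGNT rats. The log2 fold change was 0.19 ± 0.18. Vip, the precursor of vasoactive intestinal peptide, was 9.45, 11.7, 24.0, 11.8 and 16.6 RPM in WTNT and 16.5, 20.1, 21.3, 17.9 and 15.6 RPM in TGNT. Only WTNT rat 3 exceeded all TGNT rats here, and the log2 fold change was 0.31 ± 0.20.

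Tac1, from which substance P and neurokinin A are made, was 2.15, 3.27, 5.07, 1.02 and 9.24 RPM in WTNT and 3.87, 4.98, 6.72, 5.47 and 6.35 RPM in TGNT. Its coefficient of variation of 77.4% in WTNT was the highest of the 10 members, and the log2 fold change was 0.40 ± 0.37. How these genes compared shifted with single wild-type rats, and so did the count over all genes. Without WTNT rat 3, Vip and Cck had an unadjusted p under 0.05, and without WTNT rat 5, Cck and Tac1 did. No member had an adjusted p under 0.05 in either case. Of all 17168 genes, 986 had an unadjusted p under 0.05 without WTNT rat 3 and 877 without WTNT rat 5, against 554 with all rats. WTNT rat 3 also had the lowest level of the dentate granule cell markers, a mean of 4.23 on the log2(RPM + 1) scale where the other 4 WTNT rats had 5.04 to 5.84, while GABAergic interneuron markers were highest in WTNT rats 3 and 5, at a summed 1485 and 1442 RPM against 1084 to 1186 RPM in rats 1, 2 and 4 and 1280 to 1384 RPM in TGNT. Neuropeptide receptors summed to 621 and 726 RPM in the same 2 rats against 478 to 543 RPM in the other three. The part of these in the spread was not tested.

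The opioid precursors varied in another way. Pdyn, the precursor of dynorphins, was 58.0, 39.7, 17.2, 50.5 and 59.3 RPM in WTNT and 80.0, 50.4, 48.6, 33.9 and 40.5 RPM in TGNT. The lowest value belonged to WTNT rat 3, the rat with the lowest dentate marker level, and the highest to TGNT rat 1, whose summed dentate markers were the highest at 539 RPM. WTNT rat 5 had the highest Pdyn of WTNT, but its dentate markers summed to 345 RPM, below the 400 to 490 RPM of WTNT rats 1, 2 and 4. The part of dentate content in Pdyn was not tested. The log2 fold change of Pdyn was 0.19 ± 0.27, and it was -0.03 without WTNT rat 3 and also without TGNT rat 1. Penk, the precursor of enkephalins, lay between 14.3 and 25.3 RPM in WTNT and between 12.9 and 27.3 RPM in TGNT, with a log2 fold change of 0.11 ± 0.19. Pdyn also overlaps a long non-coding RNA gene without a row of its own, LOC120101661.

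The groups overlapped for Npy, Crh and Cort too. Npy, the precursor of neuropeptide Y, was 15.1 ± 2.45 RPM in WTNT and 15.7 ± 1.96 RPM in TGNT, and an interval of 2 SE around its log2 fold change ran from -0.19 to 0.33. Crh, the precursor of corticotropin-releasing hormone, was 1.41 ± 0.432 RPM in WTNT and 1.49 ± 0.326 RPM in TGNT (log2 fold change 0.08 ± 0.29). Cort, the precursor of cortistatin, a peptide that binds somatostatin receptors, was 1.09 ± 0.441 RPM in WTNT and 0.721 ± 0.285 RPM in TGNT, from 3 to 13 and 3 to 8 counts per rat (log2 fold change -0.64 ± 0.39). All 5 TGNT rats were below the WTNT median of 1.12 RPM for Cort, and 1 of them was below every WTNT rat. In all, 8 members had a positive and 2 a negative log2 fold change, with a median of 0.15, where 52.6% of the genes with a mean of 1 count or more were positive and their median was 0.0078.

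**Figure D2:**
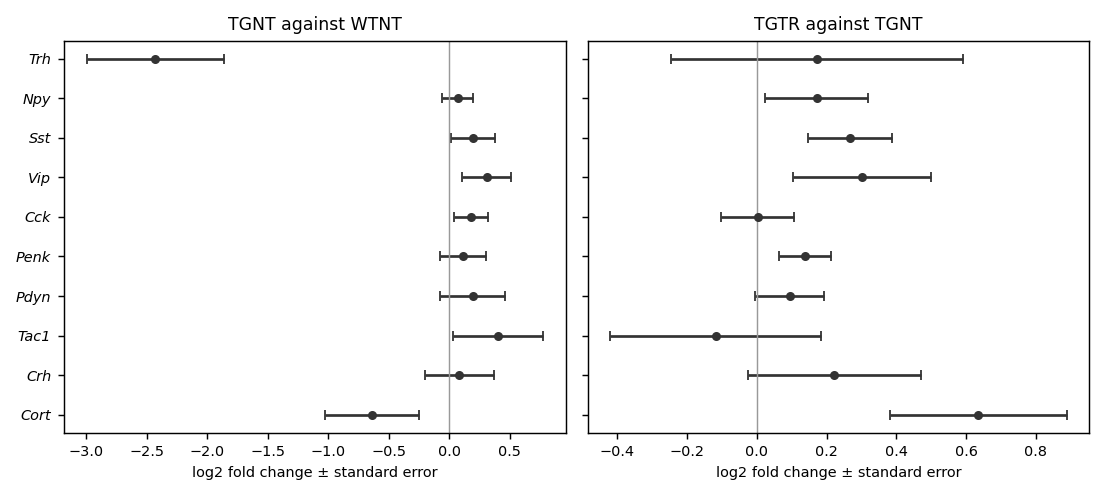
Fitted log2 fold change of each of the 10 neuropeptide genes, TGNT against WTNT on the left and TGTR against TGNT on the right, with horizontal axes that differ in range. Points are edgeR estimates and bars are ± 1 SE. Trh at -2.43 stands farthest from 0 on the left and Cort at 0.64 on the right.

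Under treatment, Cort and Sst were the members with an unadjusted p under 0.05, both higher in TGTR, and neither passed after adjustment. No gene of the 17168 passed the adjusted threshold in the edgeR quasi-likelihood test (0% of genes), while 843 genes, or 4.91%, had an unadjusted p under 0.05 (2.98% higher and 1.93% lower in TGTR). DESeq2 and the edgeR likelihood ratio test each called 9 genes, none of them a member. Of the 10 members 9 had a positive log2 fold change, with a median of 0.17, where 50% of the genes with a mean of 1 count or more were positive. Groups without overlap were found in 1 member, Cort, and in 1.43% of 13610 genes.

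Cort was 1.93, 2.06, 0.751 and 2.02 RPM in TGNT rats 1 to 4, and 2.28, 2.54, 2.34, 2.53, 3.13 and 2.84 RPM in TGTR rats 1 to 6. Every TGTR rat was above every TGNT rat, and TGNT rat 3 was far below the other three. These values rest on 10 to 24 counts per TGNT rat and 29 to 36 counts per TGTR rat. The log2 fold change was 0.64 ± 0.25 (edgeR adjusted p = 0.964). Without TGNT rat 3 it was 0.38 and the unadjusted p was above 0.05, and in the other 9 fits that each left out 1 rat the unadjusted p was under 0.05.

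Sst was 59.6, 43.8, 37.9 and 42.2 RPM in TGNT rats 1 to 4, and 46.5, 63.7, 55.2, 48.1, 58.1 and 59.0 RPM in TGTR rats 1 to 6. All TGTR rats were above TGNT rats 2, 3 and 4, and TGNT rat 1 was above 5 of the 6 TGTR rats. TGNT rat 1 also stood apart from the other TGNT rats in its markers, with GABAergic interneuron markers at a summed 1381 RPM against 1104 to 1185 RPM, dentate markers at 255 against 322 to 361 RPM and CA3 markers at 118 against 180 to 192 RPM, and their part in its Sst level was not tested. The log2 fold change was 0.27 ± 0.12 (edgeR adjusted p = 0.99). It ranged from 0.18 without TGNT rat 3 to 0.42 without TGNT rat 1, and the unadjusted p was under 0.05 in 3 of the 10 fits that each left out 1 rat. TGTR rat 5 carried choroid plexus markers at a summed 3023 RPM, against between 9.24 and 149 RPM for the other TGTR rats and between 10.9 and 24.9 RPM for TGNT rats. Without it the log2 fold change of Cort was 0.59 with an unadjusted p still under 0.05, and the unadjusted p of Sst was above 0.05.

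Somatostatin and cortistatin act on the same receptors, and the somatostatin receptor Sstr2 was also higher in TGTR. It was 12.6 ± 0.658 RPM in TGNT (n = 4) and 17.9 ± 1.75 RPM in TGTR (n = 6), with ranges of 12.02 to 13.44 and 15.6 to 20.4 RPM that did not overlap. The log2 fold change was 0.51 ± 0.09 (edgeR adjusted p = 0.40). Among the other receptors of the family, Sstr3 was 39.1 ± 2.99 RPM in TGNT and 33.3 ± 5.15 RPM in TGTR (log2 fold change -0.22), Sstr4 was 28.4 ± 4.68 and 28.6 ± 3.15 RPM (0.02), Sstr1 was 28.4 ± 17.7 and 34.8 ± 11.1 RPM (0.29), and none of these had an unadjusted p under 0.05. Sstr5 had at most 2 counts in a rat. Between genotypes Sstr2 was 14.5 ± 3.05 RPM in WTNT and 15.3 ± 3.14 RPM in TGNT, and the difference between the 2 comparisons was not tested.

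For the other members the treatment groups overlapped. Vip was 14.6, 8.14, 6.84 and 12.4 RPM in TGNT and from 10.1 to 15.7 RPM, with a median of 12.8 RPM, in TGTR (log2 fold change 0.30 ± 0.20). Penk was 22.3, 22.02, 20.2 and 20.3 RPM in TGNT and from 21.0 to 26.2 RPM in TGTR (log2 fold change 0.14 ± 0.07). Its coefficient of variation of 5.35% in TGNT was the lowest among the members. Cck had the fold change nearest to 0. It was 116 ± 19.4 RPM in TGNT and 116 ± 12.9 RPM in TGTR, and the interval of 2 SE around its log2 fold change ran from -0.21 to 0.21.

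Trh, lower in TGNT than in WTNT rats of the genotype comparison, was 0.701, 0.343, 0.977 and 0.552 RPM in TGNT and from 0.404 to 1.499 RPM in TGTR. The groups overlapped, and its log2 fold change of 0.17 ± 0.42 turned to -0.19 without TGTR rat 1, which had 21 of the 56 TGTR counts. The 4 TGNT rats of this table had 4 to 13 Trh counts each, against 0 to 2 in the 5 TGNT rats of the genotype table. In RPM, which is scaled for depth, the 4 rats lay between 0.343 and 0.977, against 0 to 0.250 in those 5 TGNT rats and 0.380 to 1.657 in WTNT. Other members also differed between the TGNT rats of the genotype and the treatment table. Sst was 23.5 to 31.0 and 37.9 to 59.6 RPM, and Cck 66.8 to 81.7 and 99.0 to 140 RPM. Vip went the other way, with 15.6 to 21.3 and 6.84 to 14.6 RPM. Npy, Penk, Pdyn, Tac1, Crh and Cort overlapped. The tables were normalized separately and the libraries differed in depth, and these differences between rats of the same label were not tested. Npy (log2 fold change 0.17 ± 0.15), Pdyn (0.09 ± 0.10), Crh (0.22 ± 0.25) and Tac1 (-0.12 ± 0.30) had an unadjusted p above 0.05. For Tac1, TGNT rat 1 at 6.31 RPM was above all other rats of the comparison, and without it the log2 fold change was 0.26.

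The other genes of the peptide pathway were taken from lists and counted by the same test. A mean of at least 10 counts was reached by 11 of the 39 other neuropeptide precursors in the genotype table and by 14 of 39 in the treatment table. Between genotypes 8 of the 11 were higher in TGNT and 3 lower, and none had an unadjusted p under 0.05, where 3.89% of all genes at that level of counts did. Under treatment 7 were higher and 7 lower, with Adcyap1, the precursor of the peptide PACAP, and Pnoc, the precursor of nociceptin, higher at an unadjusted p under 0.05 and Agt, angiotensinogen, lower, where 6.14% of all genes did. The median log2 fold change of these lists was 0.07 and 0.02, beside 0.0063 and 0.00025 for all genes at that level of counts. Adcyap1 went from 7.51 ± 1.08 RPM in TGNT to 10.7 ± 2.01 RPM in TGTR (log2 fold change 0.51, edgeR adjusted p = 0.957). Pnoc went from 5.22 ± 0.825 to 7.61 ± 1.53 RPM (0.54, edgeR adjusted p = 0.957). No gene of any list passed the adjusted threshold in either comparison.

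Receptors for the members' peptides were measured by 16 of 23 genes between genotypes (11 higher and 5 lower, none with an unadjusted p under 0.05) and by 18 of 23 under treatment (9 higher and 9 lower). Beside Sstr2, the cholecystokinin receptor Cckbr was higher in TGTR, from 10.6 ± 2.61 to 15.1 ± 2.49 RPM (log2 fold change 0.51, edgeR adjusted p = 0.957), and the neuropeptide Y receptor Npy2r was lower, from 13.5 ± 3.59 to 9.90 ± 2.40 RPM (-0.45, edgeR adjusted p = 0.99), both at an unadjusted p under 0.05. Of the 12 genes for processing and storage, 3 were higher and 9 lower in each comparison. Over all genes with a mean of 1 count or more, 52.6% were positive between genotypes and 50% under treatment. At a mean of at least 10 counts, 3.89% and 6.14% of all genes had an unadjusted p under 0.05. Vgf, a granin-like protein of dense-core vesicles, was lower in TGNT than in WTNT (94.4 ± 11.02 to 77.4 ± 14.03 RPM, log2 fold change -0.28, edgeR adjusted p = 1) and higher in TGTR than in TGNT (109 ± 10.99 to 123 ± 7.25 RPM, 0.19, edgeR adjusted p = 0.964), at an unadjusted p under 0.05 in each. Chgb, the vesicle protein chromogranin B, was lower in TGNT than in WTNT at an unadjusted p under 0.05 (687 ± 79.7 to 603 ± 58.3 RPM, log2 fold change -0.18). Of the 9 genes for breakdown and binding, 5 were higher and 4 lower between genotypes and 4 higher and 5 lower under treatment, and Crhbp, the binding protein of corticotropin-releasing hormone, was lower in TGNT (15.2 ± 1.03 to 12.8 ± 1.19 RPM, log2 fold change -0.24) at an unadjusted p under 0.05.

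GABAergic interneuron markers were higher in 14 and lower in 4 of 18 genes in each comparison, with medians of 0.10 between genotypes and 0.06 under treatment. None had an unadjusted p under 0.05 between genotypes, and under treatment Satb1 (log2 fold change 0.39) and Elfn1 (0.20) did, both higher in TGTR. Immediate early genes, which neurons switch on by activity, were lower in TGNT than in WTNT in 14 of 20. Of these 20 genes, 5 were lower and 1 higher at an unadjusted p under 0.05, with a median of -0.13. The list did not hold Egr2, which the study reported as significantly lower in TGNT than in WTNT. Egr1 went from 52.0 ± 11.5 to 34.9 ± 4.35 RPM (log2 fold change -0.58, edgeR adjusted p = 1) and Nr4a1 from 47.0 ± 7.93 to 34.1 ± 2.27 RPM (-0.46, edgeR adjusted p = 1). Under treatment 16 of the 20 were higher in TGTR, 9 of them at an unadjusted p under 0.05, with a median of 0.27. The part of interneuron content or of activity in the members' values was not tested.

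**Figure D3:**
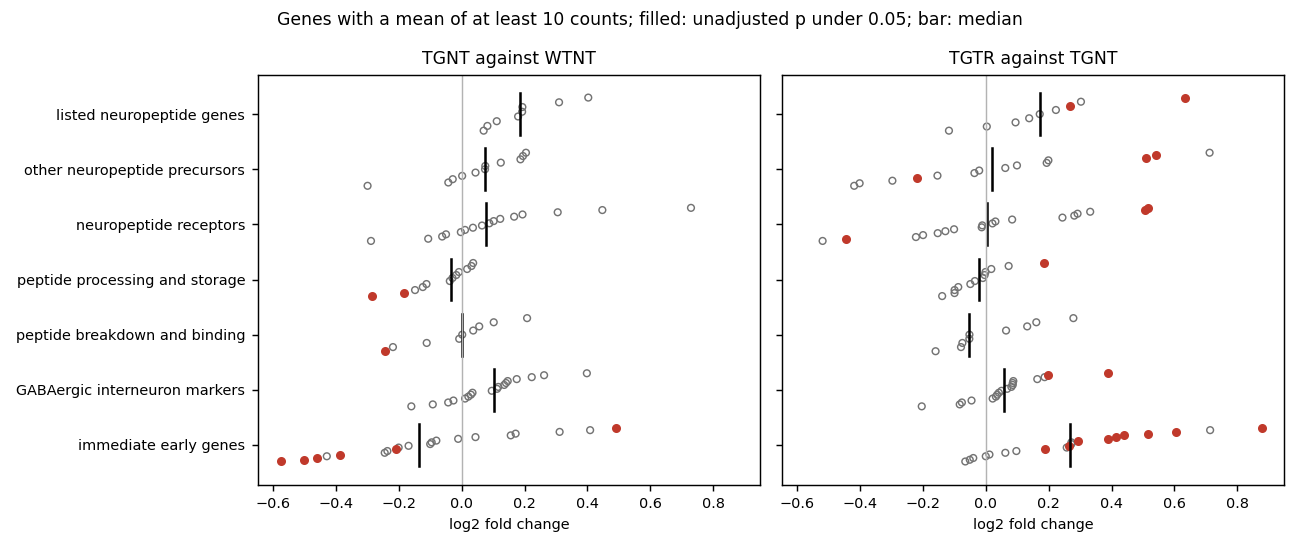
Log2 fold change (horizontal axis) of each gene whose mean reached 10 counts in the listed neuropeptide genes and 6 related lists, TGNT against WTNT on the left and TGTR against TGNT on the right. Points are genes, filled where the unadjusted edgeR p is under 0.05, and black bars are medians. Immediate early genes have a median of -0.13 on the left and 0.27 on the right, and Trh and Cort are missing on the left, and Trh on the right, for their low counts.

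Markers of hippocampal fields and of neighbouring tissues were counted where their mean reached 10 counts. Of all genes at that level, 3.89% between genotypes and 6.14% under treatment had an unadjusted p under 0.05. Between genotypes, 1 dentate marker, Calb1, was higher in TGNT at an unadjusted p under 0.05 (log2 fold change 0.34), and no CA1, CA3, thalamus, striatum, hypothalamus or choroid plexus marker at that level had one (2 of the 10 choroid plexus markers reached it). Below that level the choroid plexus marker Sostdc1, with a mean of 1 count, did have one and was lower in TGNT (log2 fold change -2.65). Under treatment no dentate, CA1 or CA3 marker had one, while 3 of 8 striatum markers (Drd2 and Ppp1r1b among them), 1 of 7 thalamus markers (Prkcd) and 6 of 10 choroid plexus markers were higher, and 1 of 2 hypothalamus markers (Nkx2-1) was lower. The choroid plexus counts came from TGTR rats 5 and 6, at summed levels of 3023 and 149 RPM, while the other 4 TGTR rats had 9.24 to 11.3 RPM and the TGNT rats 10.9 to 24.9 RPM. Penk, Tac1 and Pdyn are abundant in the striatum, whose markers summed to between 191 and 200 RPM in TGNT and between 187 and 221 RPM in TGTR, and their part in these 3 genes was not tested.

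Whether the members varied together from rat to rat was asked within groups, as Pearson's r of log2(RPM + 1) after the mean of each group was subtracted, over 10 rats and 45 pairs in each comparison. No pair passed a Benjamini-Hochberg adjusted p of 0.05 in either comparison (100000 permutations within groups), and 9 pairs between genotypes and 7 under treatment had an unadjusted permutation p under 0.05. Of the 45 pairs 27 had the same sign of r in both comparisons, whose rats are not shared. A single pair, Sst and Tac1, had an unadjusted p under 0.05 in both. In the genotype comparison r was 0.87 (permutation p = 0.00812, adjusted p = 0.0914) and Spearman's rho was 0.84 (permutation p = 0.0266). In the treatment comparison r was 0.85 (permutation p = 0.00756, adjusted p = 0.104) and rho was 0.76 (permutation p = 0.0262). Without the 2 rats farthest from the median of Sst, r was 0.78 and 0.80.

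**Figure D4:**
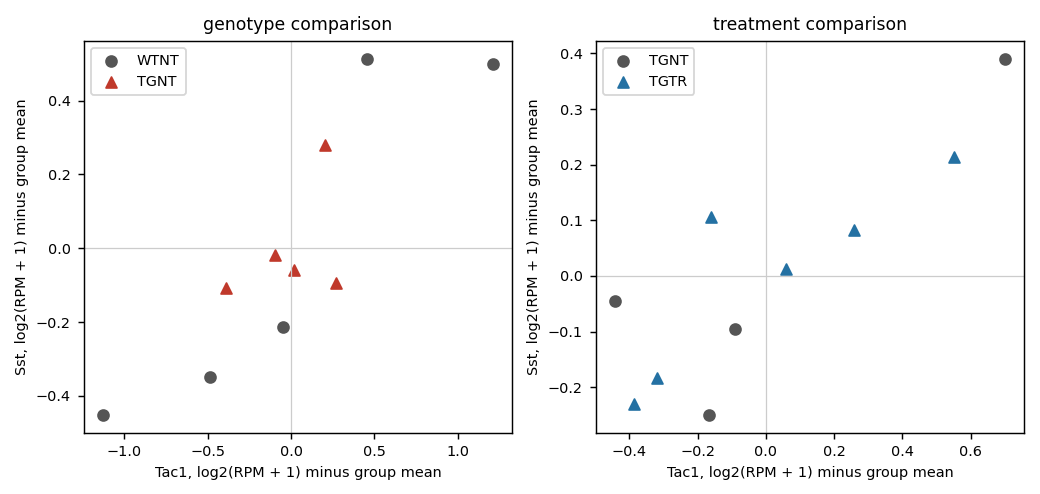
Sst against Tac1 in each rat, both as log2(RPM + 1) minus the mean of the rat's group, for the genotype comparison (left, WTNT circles and TGNT triangles) and the treatment comparison (right, TGNT circles and TGTR triangles). Pearson's r was 0.87 on the left and 0.85 on the right, and the WTNT rats span the widest range on the left.

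Some pairs with a strong r in one comparison were weak or of the opposite sign in the other. Vip and Cck had r = 0.89 between genotypes and 0.25 under treatment, Cck and Pdyn had 0.82 under treatment and -0.36 between genotypes, and Trh and Vip had -0.92 between genotypes and -0.43 under treatment. Penk and Pdyn, the opioid precursors, had 0.75 and 0.57. Npy and Trh each had an r below 0 with Sst, Vip, Cck and Tac1 in both comparisons. For Npy it went down to -0.81 with Cck between genotypes and -0.80 with Tac1 under treatment, and Npy and Trh had r = 0.44 and 0.41 with each other. These values share library, scaling and tissue content, and none passed the adjusted threshold.

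**Figure D5:**
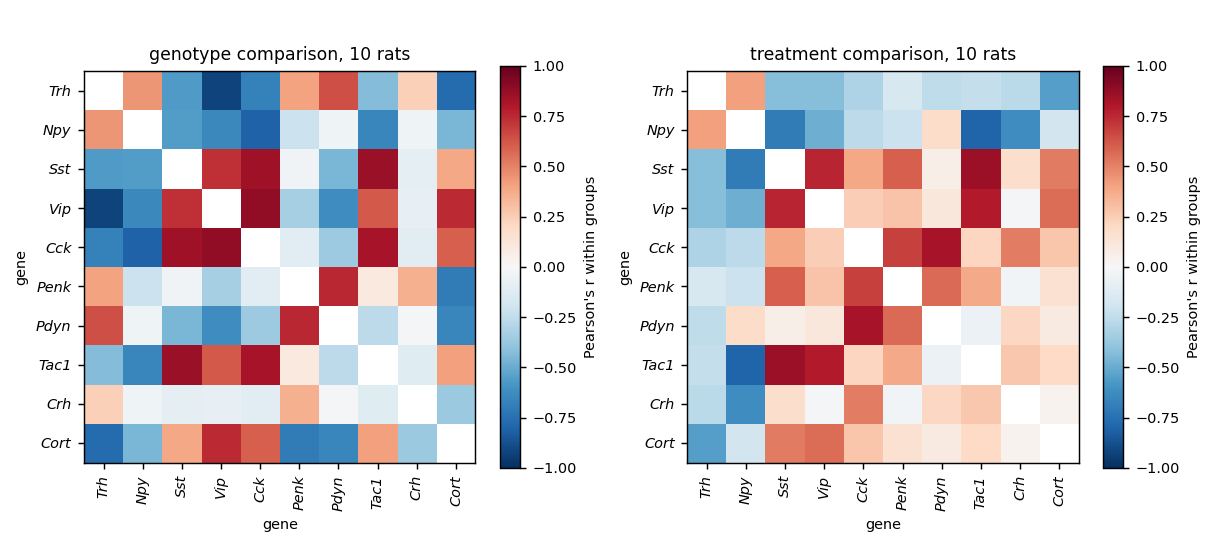
Pearson's r within groups for every pair of the 10 neuropeptide genes, over the 10 rats of the genotype comparison (left) and the 10 of the treatment comparison (right). Red is positive and blue negative, on a scale from -1 to 1. The Sst and Tac1 square is dark red on both sides, at 0.87 and 0.85, and the row of Npy is mostly blue.

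The genes most like each member from rat to rat were named by the smaller of its 2 values of r, over 10 rats in each comparison and 11342 or 11343 genes whose mean reached 10 counts. These were Parm1, Thrb and Slc35f1 for Sst (each 0.90), Lcp1 for Vip (0.91) and Pard3 for Npy (0.91). Cck lay nearest to Traf3 (0.91), Pdyn to Cpne6 (0.90), and Penk to Jun (0.84), the immediate early gene. Tac1 lay nearest to LOC100233213 (0.94) and Nppa (0.91), and Sst was its number 22. The sparse members Trh and Crh had weaker neighbours, Cnot3 for Trh (0.75) and Cep70 for Crh (0.76). These correlations were selected as the highest of many and are descriptions without a test.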

How the data were processed

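Hippocampal mRNA of 20 female rats was sequenced, with 1 library per rat (labelled left hippocampus, while the study's methods name the right). The submitters' processing notes name bcl2fastq 2.17, Bowtie2 2.1.0, RSEM 1.2.15, edgeR and build rn6. The authors deposited, for each comparison, estimated counts per gene symbol from RSEM, not normalized, and a signal table of reads per 1000000 scaled by TMM (RPM). Annotation and read filters were not given in the sources used here.

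The estimated counts were made whole by rounding, then fitted over all 17168 genes of each table with the edgeR 4.0.16 quasi-likelihood test (R 4.3.3, TMM factors, group as the only term), with Benjamini-Hochberg adjustment over all genes. The groups were taken from the labels. The fit was tried on simulated counts with 2-fold changes in 200 genes of a mean of at least 10 counts. It recovered 89.5% of them in the genotype layout and 89.0% in the treatment layout, and 7.25% and 2.73% of its calls were false. This does not cover Trh, or Cort between genotypes, whose means were below 10 counts. DESeq2 1.42.0, limma 3.58.1 and other settings were alternatives. All counts of the 10 members were whole as deposited. The 10 members and the 13 gene lists were chosen with earlier results of these data known, so that p-values of members and lists are descriptions. In lists, the up to 3 genes of lowest p were named among those with a mean of at least 10 counts, together with genes nearest to a member and App. The pairs of members named, the other somatostatin receptors, Trhr2, Sostdc1 and the genotype values of Sstr2 were chosen after their values were seen. Promoters are from RefSeq, build GRCr8, and no coordinates were moved between builds. Depth was 5848458 to 14175594 counts per library, which leaves Trh, Crh and Cort with few counts and wide counting error. The gene nearest to Cort and 1 striatum marker are not reported here.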

Additional observations from a re-analysis of the deposited data

Results flagged for a closer look

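In 40 groups of 4 to 6 rats, 3 held a rat far from the rest of its group by Dixon's test, where about 2 would be flagged by chance. Sst of TGNT rat 5 in the genotype comparison was 31.0 RPM, with the next rat at 25.0 RPM. Trh of TGTR rat 1 was 1.499 RPM, with the next at 0.710 RPM. Cort of TGNT rat 3 in the treatment comparison was 0.751 RPM, with the next at 1.93 RPM.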

How the results depend on the processing

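No member passed an adjusted p of 0.05 under any setting tried. Of the 357 recomputed log2 fold changes of members, 344 kept their direction. The count of members with an unadjusted p under 0.05 between genotypes was 1, became 0 with the expression filter of edgeR, which removes Trh, and ranged from 1 to 3 when 1 rat at a time was left out. Over all genes the count then ranged from 358 to 986, against 554 with all rats. Under treatment the count of members was 2, became 1 with limma on log2(RPM + 1) or log2(RPM + 0.1) and with the filter, and became 3 with scaling by library size only (Penk added, with 1036 of all genes). The count of members ranged from 0 to 3 when 1 rat was left out, with 0 without TGNT rat 3. Over all genes it then ranged from 571 to 1207, against 843 with all rats. Pairs that varied together numbered 0 between genotypes, 1 on log2(RPM + 0.1), and 0 to 1 when 1 rat was left out. Log2 fold changes turned sign only when 1 rat was left out: between genotypes Npy ran from -0.0054 to 0.13, Pdyn from -0.031 to 0.32 and Crh from -0.019 to 0.21, and under treatment Tac1 from -0.30 to 0.26, Trh from -0.19 to 0.46 and Cck from -0.068 to 0.10. The causes were not tested.

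With the replicate number as a block, the count was 2 between genotypes (Trh and Vip, with 553 of all genes) and 0 under treatment (409 of all genes), with Cort at 0.57. Rats with the same number correlated at -0.21 to 0.34 between genotypes and at -0.58 to 0.14 under treatment. Some rats correlated best with their own number and others did not. These correlations rest on few rats and cannot settle whether rats with the same number were paired. Depth limits Trh, with at most 10 counts per rat between genotypes, more than the other members.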
